A study of Mus musculus with 15 samples.

Results

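The genes described here are a set of mouse genes with large changes in mRNA level after the appearance of an unfolded protein. They were 6530418L21Rik, Mybl1, Fam46b, Mocos, Rusc1 and Abhd4, 6 of the 20207 genes in the deposited tables. They were chosen by their CPM (reads per 1000000 reads counted in genes) at 135 or 405 min, which differed strongly from control, and because they have no known place in proteotoxic stress. No numeric threshold was set. The values at those times therefore describe the choice and carry no test. All 6 genes had at least 1 read in every sample, as did 10276 genes in all, which were the genes tested.

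mRNA-seq was performed on the mouse fibroblast line NIH3T3, derived from embryos, with stable expression of DD-sfGFP. In this fusion, superfolder GFP carries a destabilizing domain (DD), a mutant FKBP whose fold depends on a bound small molecule, Shield-1 (S1). All samples carried DD-sfGFP, including the controls. The controls were 5 samples labelled with no stress and time 0, in which S1 was kept in the medium, and S1 had been removed for 45 min in 3 samples, 135 min in 3 samples and 405 min in 4 samples. According to the study's methods the transgene was introduced with a transposon and cells with high GFP fluorescence were sorted, so the line was a sorted population. To withdraw S1, a purified FKBP protein that binds it was added. Samples without DD or with other stresses were not analysed here, so a response to the added protein and a response to the unfolded DD cannot be told apart in these samples. The study reports that, in a line with GFP alone, the transcripts measured by RT-qPCR did not change significantly after S1 withdrawal. It also performed mRNA-seq on cells with GFP alone. For a DD made from a bacterial protein, whose own ligand was washed out, it reports similar but less pronounced changes by RT-qPCR.

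The 6 genes belong to unrelated families. 6530418L21Rik is now named Inka2 and encodes an inhibitor of the kinase Pak4, which acts on the actin cytoskeleton. Mybl1 encodes A-Myb, a transcription factor of the MYB family best known from male germ cells. Fam46b, now Tent5b, belongs to a family of noncanonical poly(A) polymerases, which lengthen the tails of mRNAs. Mocos encodes the molybdenum cofactor sulfurase, which completes the cofactor of xanthine dehydrogenase and aldehyde oxidase. Rusc1 encodes a scaffold protein with a RUN and an SH3 domain. Abhd4 encodes a hydrolase of the alpha/beta fold that acts on N-acyl phospholipids, in one of the routes to N-acylethanolamines. The better known arms of the response to misfolded proteins run through HSF1, which drives chaperone genes, NRF2, which drives antioxidant genes, and p53, which drives cell cycle inhibitors. Genes of these arms served below as reference profiles.

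The samples carried the markers of a fibroblast line. The summed level of 7 fibroblast markers was between 10800 and 18000 CPM in the 15 samples, and that of 8 leukocyte, epithelial and endothelial markers was between 1.14 and 5.56 CPM. Whether a change occurred in every cell or in a share of the cells cannot be told apart in such bulk samples. Total counts were between 6652539 and 30258404 per sample. The samples were split into 2 library sets, which the labels do not name. The split was by how strongly the read count depended on the GC content of the transcript. It was set to give 2 sets, so their number is not a finding, and whether they were separate batches is not known. Library set 2 held control replicate 2, 45-min replicate 3 and 405-min replicates 1, 2 and 4. Library set 1 held the other 10 samples, with all 3 samples of 135 min. Of 10276 genes, 5146 (50.1%) differed between the sets in an edgeR model with group and set, so values within a set are given below beside those of the whole design where they differ. Because the sets were drawn from these same counts, this share is a description.

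The positions of the genes were taken from the deposited tables (mm9). 6530418L21Rik lies on the plus strand of chromosome 3 and was listed with either of 2 starts, 105507517 in 6 samples and 105508376 in 9 samples, both ending at 105523759. Rusc1 lies on the minus strand of the same chromosome from 88887901 to 88893953. Mybl1 is on the minus strand of chromosome 1 from 9658916 to 9690290, and Fam46b on the plus strand of chromosome 4 from 133036048 to 133043855. Abhd4 spans 54878972 to 54888840 of the plus strand of chromosome 14. All 6 are protein-coding genes, with 2 exons in the longest annotated transcript of 6530418L21Rik and of Fam46b and 16 in that of Mybl1. The GC content of the longest coding transcript was 60.2% for Fam46b, 60.1% for Rusc1, 54.9% for Mocos, 53.5% for Abhd4, 50.5% for 6530418L21Rik and 37.0% for Mybl1. The median of the tested genes was 49.6%, and Fam46b and Rusc1 lay at percentiles 96.7 and 96.5 of them.

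The sequences before the start sites of 3 genes are shown because these genes had the largest log2 fold change at 135 min (6530418L21Rik), the only lower level (Fam46b) and the largest effect of the library set (Rusc1). Each is the 250 bases before a RefSeq start site on the gene's own strand (GRCm38.p6). The windows of 4 of the 6 genes were examined, Abhd4 being the fourth, and Mocos and Mybl1 were left out. 6530418L21Rik has 2 RefSeq starts that are 859 bases apart, the same distance as the 2 starts listed in the deposited tables. Capitals mark matches to a searched motif, which are the CCAAT box (CCAAT, or ATTGG when read on the opposite strand), the E-box CACGTG and the 10-base half-site consensus of p53.
6530418L21Rik first start, chr3:105704349-105704598, plus strand: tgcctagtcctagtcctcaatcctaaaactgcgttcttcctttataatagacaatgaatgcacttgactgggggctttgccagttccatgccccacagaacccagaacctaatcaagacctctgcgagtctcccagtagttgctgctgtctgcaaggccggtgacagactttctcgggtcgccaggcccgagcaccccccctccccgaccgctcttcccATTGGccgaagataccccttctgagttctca
6530418L21Rik second start, chr3:105705208-105705457, plus strand: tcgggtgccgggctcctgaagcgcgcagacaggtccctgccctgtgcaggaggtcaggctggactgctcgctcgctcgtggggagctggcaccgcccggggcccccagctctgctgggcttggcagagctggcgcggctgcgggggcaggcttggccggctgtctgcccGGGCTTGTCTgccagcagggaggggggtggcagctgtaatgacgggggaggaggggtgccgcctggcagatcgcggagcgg
Fam46b, chr4:133479883-133480132, plus strand: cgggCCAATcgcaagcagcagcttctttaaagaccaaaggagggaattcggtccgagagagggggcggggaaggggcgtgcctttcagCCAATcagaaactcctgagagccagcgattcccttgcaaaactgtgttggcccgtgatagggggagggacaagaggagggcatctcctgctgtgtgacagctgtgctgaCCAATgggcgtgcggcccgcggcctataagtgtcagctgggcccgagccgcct
Rusc1 second start, chr3:89090032-89090281, minus strand: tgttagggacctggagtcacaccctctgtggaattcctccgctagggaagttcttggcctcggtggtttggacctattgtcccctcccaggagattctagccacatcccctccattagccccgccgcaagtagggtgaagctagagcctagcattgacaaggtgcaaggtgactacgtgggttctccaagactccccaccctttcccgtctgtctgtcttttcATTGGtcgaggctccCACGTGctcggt

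The window before the second start of 6530418L21Rik held 1 match to the p53 half-site, beginning 81 bases before the start. It matched on both strands, as every match to this consensus must. Such a match was present in 7.13% of all 32851 promoter windows. The window of Fam46b held 3 CCAAT boxes, at 246, 162 and 53 bases before the start, and a CCAAT box was present in 33.8% of all windows. The Rusc1 window held an E-box 12 bases before the start, a motif present in 6.02% of windows, and a CCAAT box 27 bases before it. In the windows of the 4 examined genes, the first Abhd4 window held 2 overlapping CCAAT boxes on opposite strands, and the second Abhd4 and the first Rusc1 window held no match. None of the windows of these 4 genes held the antioxidant response element TGACNNNGC (10.2% of all windows), the heat shock element GAANNTTC (6.69%) or the cAMP response element TGACGTCA (1.55%) on either strand. Mocos and Mybl1 are not covered by this search. No motif overlapped another of a different name. These are matches of letters and say nothing of binding.

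6530418L21Rik had the highest log2 fold change of all 10276 genes at 135 min. Its level in the 5 controls was 2.18, 1.44, 4.66, 0.385 and 2.22 CPM, and 5.91, 3.16 and 7.97 CPM at 45 min. At 135 min it was 19.6, 22.3 and 18.8 CPM. At 405 min it was 9.95, 7.72, 5.92 and 10.3 CPM. Every sample of 135 and 405 min lay above all controls, and the 135-min samples lay above all others. The 405-min and 45-min ranges overlapped, as did those of 45 min and control. The log2 fold change from control was 3.27 ± 0.50 (SE), or 9.67-fold, at 135 min and 1.88 ± 0.47 at 405 min. The lowest control value, 0.385 CPM, rested on 6 reads, and without that sample (control replicate 4) the 135-min value was 2.99. Within library set 1 the 135-min value was 3.15 ± 0.57.

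The reads of the 2 starts of 6530418L21Rik were not separated in the tables. The study also designed a qPCR primer pair for this gene, which is shown because it matches 1 of the 2 transcripts in full. The pair matched positions 184 to 322 of the 4701-base annotated transcript and spanned 139 bases. The forward primer had no exact match in the 1868-base annotated transcript. Which start each transcript uses was not determined.
6530418L21Rik forward primer: gcaaggacatggactgctatc
6530418L21Rik reverse primer: gccgtctgcacttgtagga

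Mybl1 followed the same order of times at a higher level and with a smaller change. The controls were at 16.5, 17.9, 4.36, 19.1 and 10.9 CPM and the 45-min samples at 18.5, 20.0 and 22.5 CPM. The 135-min samples reached 52.3, 52.4 and 43.3 CPM, and the 405-min samples 36.5, 41.5, 27.5 and 34.7 CPM. The 45-min samples overlapped the controls, whereas the 405-min samples lay above both and the 135-min samples above all others. The log2 fold change was 1.87 ± 0.30 (SE), or 3.64-fold, at 135 min and 1.24 ± 0.28 at 405 min. Control replicate 3, the library with the fewest reads, had the lowest level, and without it these values were 1.67 and 1.02.

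Fam46b was the only 1 of the 6 genes with a lower level. It was at 9.01, 35.4, 14.6, 7.39 and 11.9 CPM in the controls and at 16.7, 11.4 and 23.3 CPM at 45 min. At 135 min its level was 2.18, 3.73 and 2.20 CPM. At 405 min it was 18.1, 17.4, 9.21 and 20.7 CPM. The 135-min samples lay below all others, and the control, 45-min and 405-min ranges overlapped. The log2 fold change was -2.49 ± 0.48 (SE), or 0.178-fold, at 135 min and -0.03 ± 0.39 at 405 min. The high control sample was replicate 2, the only control of library set 2, and without it the 135-min value was -2.01 and the 405-min value 0.45. Within the sets the 405-min value was -0.32 ± 0.50 in set 1 (1 sample against 4) and -0.93 ± 0.24 in set 2 (3 samples against 1), so the level at 405 min relative to control depended on which libraries were compared.

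Mocos, Rusc1 and Abhd4 had their highest levels at 405 min, where they held ranks 2, 3 and 4 among the log2 fold changes of all tested genes. Mocos lies on the plus strand of chromosome 18 from 24812192 to 24860057. It was at 1.27, 3.52, 1.35, 0.771 and 4.11 CPM in the controls and at 2.71, 0.844 and 3.57 CPM at 45 min. At 135 min it was at 4.42, 5.72 and 3.9 CPM, and at 405 min at 30.1, 24.6, 14.8 and 31.1 CPM. The 405-min samples lay above all others. The 135-min samples lay above those of 45 min but overlapped the controls, of which replicate 5 was at 4.11 CPM. The log2 fold change was 1.10 ± 0.47 (SE) at 135 min and 3.38 ± 0.45, or 10.4-fold, at 405 min.

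Rusc1 had few reads in the controls, with levels of 0.420, 2.13, 0.601, 0.450 and 0.649 CPM. These rested on 4 to 40 reads. It was at 1.55, 0.949 and 2.74 CPM at 45 min and at 0.884, 0.845 and 0.801 CPM at 135 min. At 405 min it reached 14.8, 9.14, 3.49 and 11 CPM. The 405-min samples lay above all others, whereas the 45-min and 135-min ranges each overlapped the controls. The log2 fold change was 0.00 ± 0.52 (SE) at 135 min and 3.36 ± 0.50, or 10.3-fold, at 405 min. Within library set 1 the 4 controls were at 0.420 to 0.649 CPM, below the 3 samples of 135 min, and the 135-min value was 0.66 ± 0.49. Without control replicate 2 it was also 0.66 in the fit of all other samples, and the 405-min value was 4.02.

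Abhd4 was at 2.89, 15.9, 3.31, 8.35 and 7.94 CPM in the controls and at 8.26, 8.54 and 22.6 CPM at 45 min. The 135-min samples were at 14, 14.2 and 12.6 CPM, within the range of the controls. At 405 min the level was 111, 63.5, 38.7 and 96.3 CPM, above all other samples. The log2 fold change was 0.86 ± 0.46 (SE) at 135 min and 3.22 ± 0.45, or 9.34-fold, at 405 min. The highest control and the highest 45-min sample were those of library set 2. Within set 1 the 3 samples of 135 min lay above all 4 controls, with a log2 fold change of 1.24 ± 0.35. The share of all genes set apart in this way within set 1 was not counted, here or for Rusc1.

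**Figure D1:**
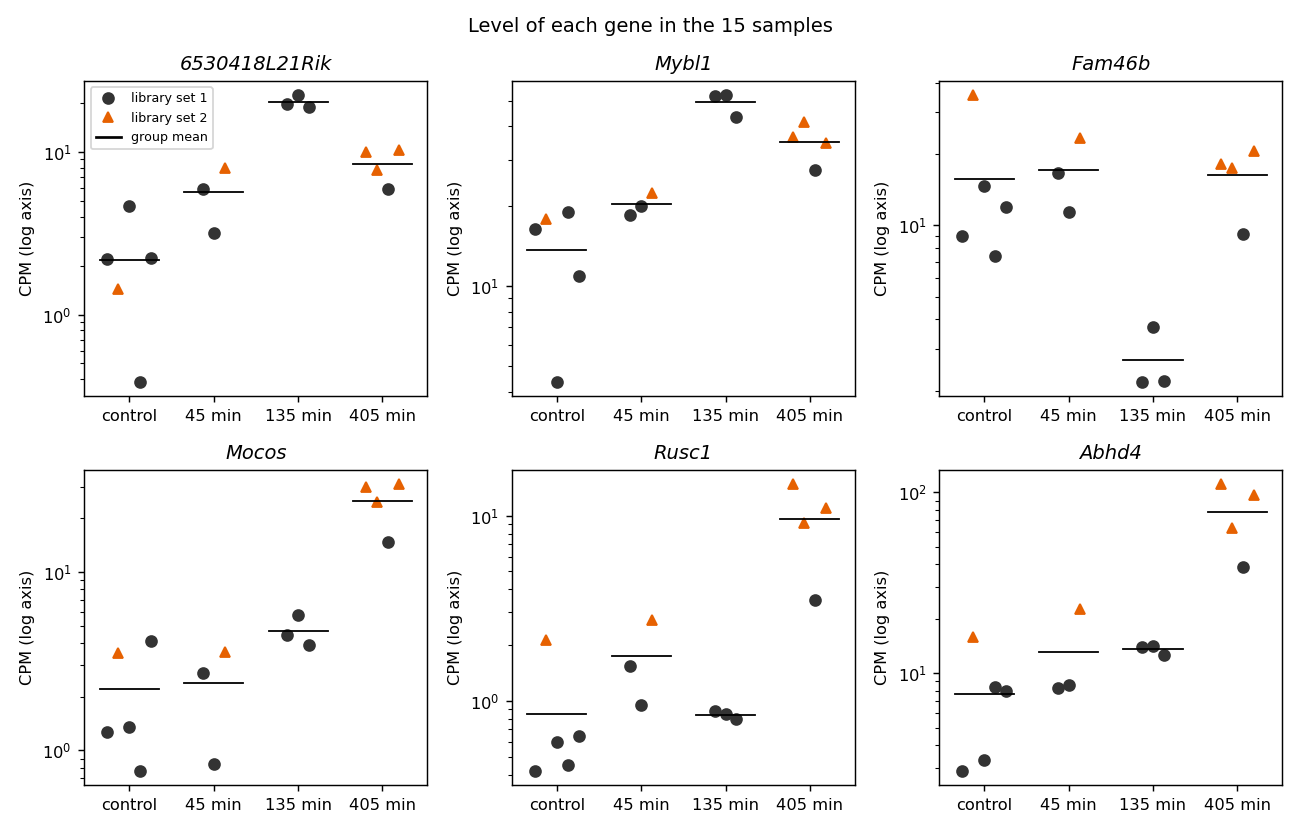
CPM (log axis) of the 6 genes in each of the 15 samples by time after S1 removal, with circles for library set 1, triangles for library set 2 and bars for group means. 6530418L21Rik and Mybl1 were highest at 135 min, Fam46b was lowest at 135 min, and Mocos, Rusc1 and Abhd4 were highest at 405 min.

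By the count over the 6 genes, the range of CPM did not overlap that of the controls for 3 genes at 135 min and 5 genes at 405 min. Of all tested genes, 9.05% and 13.3% had ranges apart from the controls at these times. A log2 fold change of at least 1 in either direction was found for 4 of the 6 genes at 135 min and 5 at 405 min, against 5.3% and 16.2% of all tested genes. By the edgeR test, 0.895% of all genes passed with a lower level at 135 min and 13.4% at 405 min. Since these contrasts chose the genes, nothing is read from these counts.

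**Figure D2:**
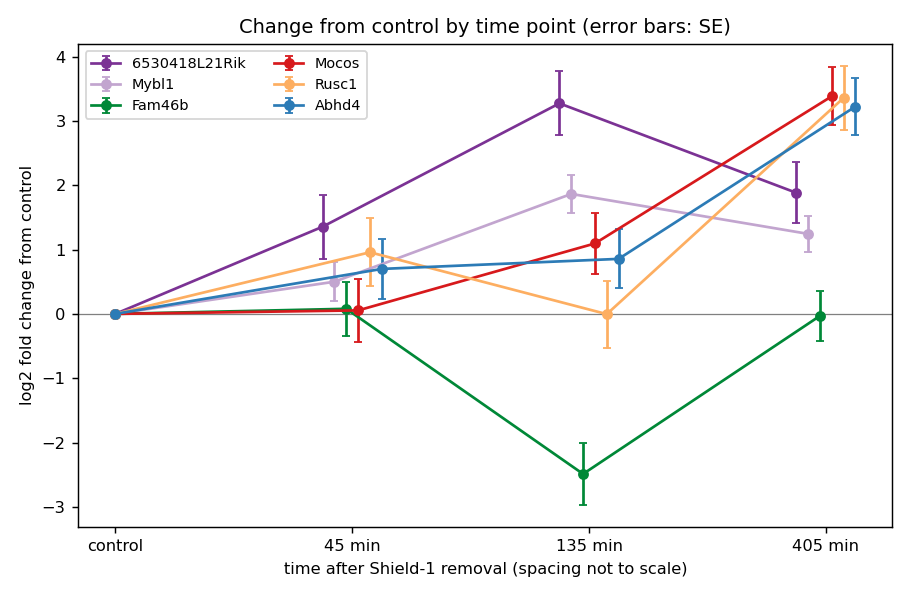
Log2 fold change from control (y axis) of the 6 genes at 45, 135 and 405 min in the fit of all 15 samples, with error bars for the SE and time points spaced evenly. At 135 min the values ran from -2.49 (Fam46b) to 3.27 (6530418L21Rik), and at 405 min those of Mocos, Rusc1 and Abhd4 were between 3.22 and 3.38.

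The samples of 45 min were not used to choose the genes, although they are compared with the same controls. The question was whether the genes already differed at this time. None of the 6 passed an adjusted p of 0.05 by edgeR's quasi-likelihood test, as was the case for all 10276 genes (0%). At an unadjusted p under 0.05, 1 of the 6 genes and 365 of all genes were counted, and DESeq2 called none of the 6 and 6 of all genes. The gene with the low unadjusted p was 6530418L21Rik, at 1.36 ± 0.50 (SE) on the log2 scale (edgeR adjusted p = 0.698). It was above all controls in 2 of 3 samples, and was the 1 gene of the 6 past a log2 fold change of 1, as were 3.05% of all genes in either direction. Rusc1 had a log2 fold change of 0.96 ± 0.53 and Abhd4 one of 0.70 ± 0.46, each above all controls in 1 of 3 samples, and Mybl1 one of 0.50 ± 0.31 with 2 of 3 samples above (edgeR adjusted p = 0.698 for all 3). Fam46b (0.08 ± 0.42, edgeR adjusted p = 0.932) and Mocos (0.05 ± 0.49, edgeR adjusted p = 0.961) had no sample beyond the controls. For Rusc1 and Abhd4 the sample above all 5 controls was replicate 3, of library set 2. When the sets were kept apart, every 45-min sample of Rusc1 lay above the controls of its set. The levels were 0.949 and 1.55 CPM against 0.420 to 0.649 CPM in set 1. In set 2 they were 2.74 against 2.13 CPM, from 43 and 40 reads. The share of all genes with this order within both sets was not counted, so nothing particular to Rusc1 is read from it. With the set as a covariate the Rusc1 value was 0.94 ± 0.33 (SE; edgeR adjusted p = 0.488). The value of 6530418L21Rik was 0.97 ± 0.63 within set 1 (2 samples against 4) and 2.46 ± 0.46 within set 2 (1 against 1), and none of the 6 genes passed in either set or with the set as a covariate. For 0.963% of all genes the 45-min range did not overlap the controls, and none of the 6 was among them.

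The effect of the library set was measured in a model with group and set. The level of Rusc1 in set 2 relative to set 1 was 1.52 ± 0.29 higher (log2 ± SE; edgeR adjusted p = 0.000546), that of Abhd4 1.25 ± 0.24 higher (edgeR adjusted p = 0.000645) and that of Fam46b 1.09 ± 0.24 higher (edgeR adjusted p = 0.00164). Mocos (0.78 ± 0.37, edgeR adjusted p = 0.0871), Mybl1 (0.27 ± 0.26, edgeR adjusted p = 0.392) and 6530418L21Rik (0.21 ± 0.45, edgeR adjusted p = 0.714) did not pass. All 3 genes that passed were higher in set 2, as were 26% of all genes, and 50.1% of all genes differed in either direction. With 6 genes nothing particular to them is read from this count. Rusc1 and Fam46b were the genes of highest GC content among the 6. The sets were split by how read count depended on GC content in these same samples. Higher levels of GC-rich genes in set 2 were therefore favoured by the split itself. The p-values of set differences, here and below, are not an independent test. The part of GC content in the set effect of each gene was not tested.

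Set 2 held 3 of the 4 samples of 405 min and 1 of the 5 controls, and the late values were smaller when the sets were taken into account. With the set as a covariate, the log2 fold change at 405 min was 2.94 ± 0.42 (SE) for Mocos, 2.64 ± 0.34 for Rusc1 and 2.57 ± 0.28 for Abhd4. Within set 1 (1 sample against 4) the values were 2.87 ± 0.70, 2.62 ± 0.62 and 2.67 ± 0.45, in the same order. Within set 2 (3 samples against 1) they were 3.01 ± 0.33, 2.43 ± 0.41 and 2.49 ± 0.31. All 3 estimates lay above 2 on the log2 scale in both sets, the lone sample being taken to vary like the others. This contrast chose the genes and each set had 1 lone sample, so the values are a description and carry no test. For 6530418L21Rik the 405-min value was 1.30 ± 0.78 within set 1 and 2.67 ± 0.42 within set 2, and for Mybl1 it was 1.01 ± 0.48 and 1.07 ± 0.26.

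**Figure D3:**
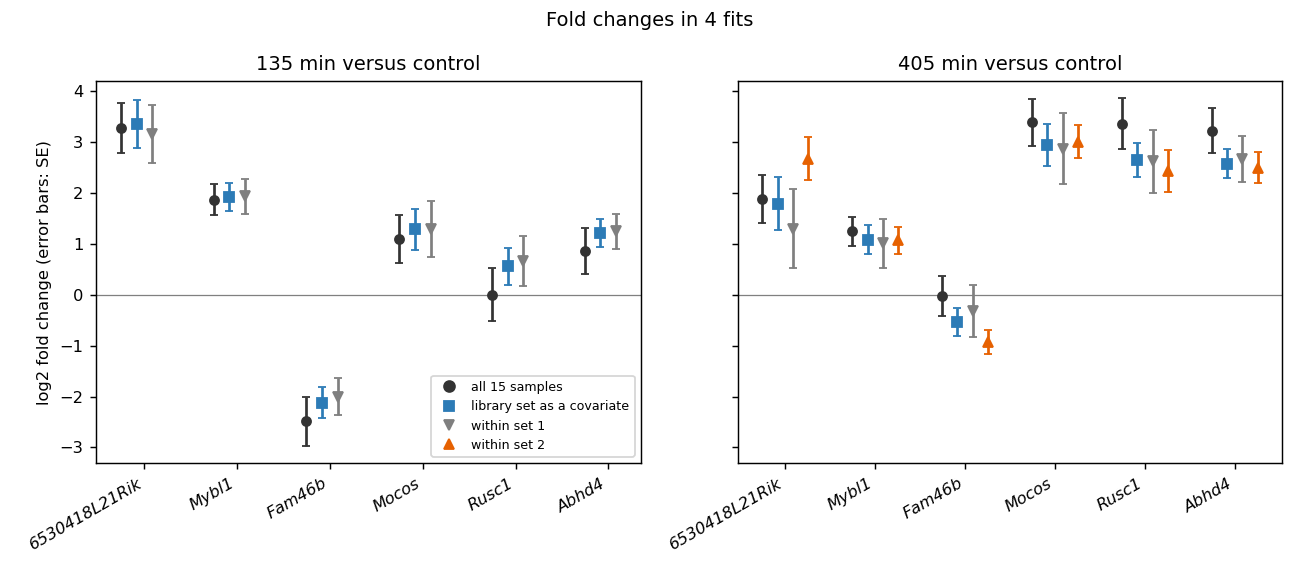
Log2 fold change from control (y axis, error bars for the SE) of the 6 genes at 135 min and 405 min in the fit of all samples, with library set as a covariate, and within each set, no sample of 135 min being in set 2. Rusc1 at 135 min went from 0.00 to 0.66 within set 1, and Fam46b at 405 min from -0.03 to -0.93 within set 2.

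The spread between samples of a group, as the biological coefficient of variation, was 47.2% for Rusc1, 44.9% for 6530418L21Rik, 44.2% for Abhd4, 43.8% for Mocos, 40.9% for Fam46b and 29.4% for Mybl1, against a median of 27.6% over all tested genes. With the set in the model it was 26.0% for Rusc1, 25.8% for Fam46b and 25.3% for Abhd4 but still 42.2% for 6530418L21Rik, beside a median of 19.6%. Each value is a single estimate over all groups of how far samples of the same group lay apart, drawn by edgeR toward that of other genes. The values with the set in the model leave out the difference between the sets.

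Levels were compared between genes by the deposited RPKM, which divides by transcript length. In the controls Fam46b was highest with a mean of 3.20 ± 2.64 RPKM (SD, n = 5), followed by Mybl1 (1.88 ± 0.927) and Abhd4 (1.62 ± 1.22). Mocos (0.378 ± 0.310), Rusc1 (0.213 ± 0.201) and 6530418L21Rik (0.196 ± 0.102) were lower. Within each of these groups of 3 the ranges overlapped, and Mocos and Rusc1 also overlapped Mybl1 and Abhd4. At 135 min Mybl1 was highest with 7.43 ± 0.827 RPKM (SD, n = 3), then Abhd4 with 3.12 ± 0.228 and 6530418L21Rik with 2.34 ± 0.292, none of whose ranges overlapped. Mocos (0.871 ± 0.188) and Fam46b (0.635 ± 0.221) overlapped, and Rusc1 was lowest with 0.237 ± 0.0111. At 405 min Abhd4 was highest with 15.1 ± 5.17 RPKM (SD, n = 4), above Mybl1 (4.63 ± 0.996), Mocos (4.04 ± 1.04), Fam46b (3.32 ± 0.983) and Rusc1 (2.29 ± 0.964), of which each overlapped the next. 6530418L21Rik was lowest by its mean, 0.861 ± 0.164 RPKM, and overlapped Rusc1.

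Likeness of profiles was described by a distance, the root mean square over the 15 samples of the difference between 2 genes in log2 CPM relative to the control mean. A smaller value is a closer profile, and the samples share their library set and depth, so the distances carry no test. Distances over the 10 samples of library set 1 alone are given where they change an order. Among the 6 genes, Rusc1 and Abhd4 were closest (0.56), followed by Mocos and Abhd4 (0.69) and Mocos and Rusc1 (0.80). Within set 1 Mybl1 and Abhd4 (0.87) were closer than Mocos and Rusc1 (0.91). Fam46b was at least 2.04 from every other member (1.66 from Rusc1 within set 1). 6530418L21Rik and Mybl1, which had the same order of times, were 1.34 apart.

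Among the 9007 genes with a mean of at least 5 CPM, the closest non-member genes to 6530418L21Rik were Cdkn1a (0.85), the p53 target that encodes the cell cycle inhibitor p21, Hmox1 (0.86), which encodes heme oxygenase 1, and Mdm2 (1.001), whose product is a ubiquitin ligase that acts on p53. Within set 1 the order of these 3 was Mdm2 (0.92), Hmox1 (0.93) and Cdkn1a (0.997). Cdkn1a had log2 fold changes of 1.41, 2.29 and 1.83 at 45, 135 and 405 min, beside 1.36, 3.27 and 1.88 for 6530418L21Rik. The closest to Mybl1 were 3230401D17Rik (0.35), Rab40c (0.40), which encodes a small GTPase, and Eda2r (0.44). Within set 1 Eda2r (0.43) was closer than Rab40c (0.46). Eda2r encodes a receptor of ectodysplasin and is named by the study as a p53 target. The closest to Fam46b were Spry2 (0.49), which encodes an inhibitor of receptor tyrosine kinase signalling, Dusp10 (0.54), which encodes a phosphatase of MAP kinases, and Narf (0.55). Within set 1 Narf (0.52) was closer than Dusp10 (0.57). Spry2 was at 26.2 ± 8.95 CPM in controls (SD, n = 5) and 5.55 ± 0.731 CPM at 135 min (SD, n = 3), and its log2 fold changes were -2.22 at 135 min and -0.36 at 405 min.

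Sqstm1, which encodes the autophagy receptor p62, was the closest gene to Mocos (0.61) and Abhd4 (0.46) and the second closest to Rusc1 (0.56). It was at 186 ± 121 CPM in controls (SD, n = 5) and 1320 ± 547 CPM at 405 min (SD, n = 4), with log2 fold changes of 0.69, 1.04 and 2.75 at the 3 times. The other genes close to Mocos were Procr (0.71), which encodes the protein C receptor, and Srxn1 (0.77), which encodes sulfiredoxin. Rusc1 was closest to Prl2c3 (0.53), which encodes a proliferin, and Phf1 (0.60) came after Sqstm1. Abhd4 was next closest to Fam102a (0.54) and to Mocs1 (0.58), which encodes an enzyme of the molybdenum cofactor pathway, and within set 1 Fam102a (0.42) was closer than Sqstm1 (0.46).

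Of 10 reference genes, the closest to 6530418L21Rik was Cdkn1a (0.85), to Mybl1 the heat shock gene Hsph1 (0.51), to Fam46b the immediate early gene Egr1 (0.69) and to Mocos the NRF2 target Gclm (0.97). The closest to Rusc1 (0.92) and Abhd4 (0.87) was Psmb3, which encodes a proteasome subunit. For Abhd4, Gclm was as close (0.87). The closest reference gene was another within set 1 for 5 of the 6 genes. It was Mdm2 (0.92) for 6530418L21Rik, Gclm (0.53) for Mybl1, Psmb3 (0.80) for Mocos and Ubb (0.46), a ubiquitin gene, for Rusc1. For Fam46b it was Id2 (0.62), with Egr1 at the same distance (0.62). Only Abhd4 kept its closest reference gene, Psmb3 (0.51), so these likenesses to a pathway rest on which libraries are compared.

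**Figure D4:**
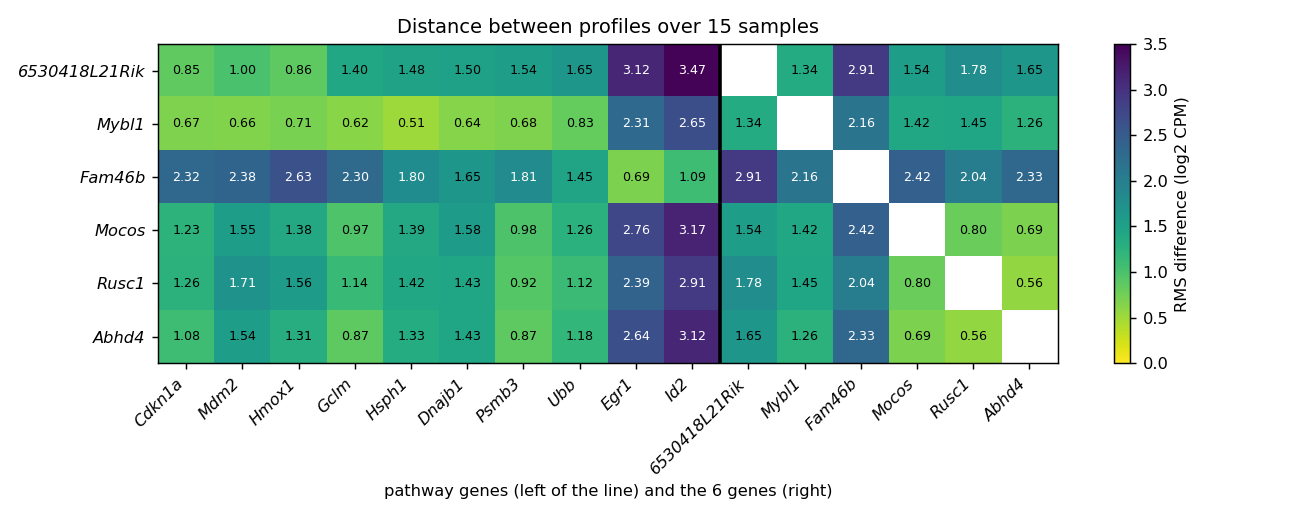
Distance between the profiles of each of the 6 genes (rows) and 10 reference genes or the other members (columns), in log2 CPM over 15 samples, with light cells for close profiles. The block of Mocos, Rusc1 and Abhd4 held distances of 0.56 to 0.80, and Fam46b was close to Egr1 (0.69) and at least 2.04 from every member over these samples.

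Genes of the same family or pathway as the 6 genes were then examined, in 6 lists of 84 genes in the tables, of which 62 were tested. At 45 min and at 135 min none of the 62 passed by edgeR, against 0% and 1.46% of all genes. At an unadjusted p under 0.05 there were 2 of 62 at 45 min and 8 of 62 at 135 min, and DESeq2 called 0 and 1. At 405 min 9 had a higher and 5 a lower level, or 22.6% beside 23.4% of all tested genes. The median log2 fold change at 405 min was 0.19 over the 62 genes and 0.00 over all genes. The share was close to the background, and the count turned on single libraries. It was 19 higher and 17 lower without control replicate 2, 15 and 14 without 405-min replicate 3, 3 and 3 without control replicate 1, and 2 and 2 without 405-min replicate 1. Without control replicate 4 or 405-min replicate 2 it was 3 and 2, and without 405-min replicate 4 it was 3 and 1. At 135 and 405 min, the share of all genes that passed was taken only in the main edgeR fit of all samples. Counts and calls from other fits, here and below, thus have no background share beside them. Nothing particular to these genes is read from them.

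Of 8 tested genes of the molybdenum cofactor pathway, 2 rose and 1 fell at 405 min. Mocs1, which acts in the first step of cofactor synthesis, was at 9.87 ± 7.62 CPM in the 5 controls and at 51.6 ± 19.7 CPM in the 4 samples of 405 min (mean ± SD). Its log2 fold change was 2.29 ± 0.44 by edgeR (adjusted p = 0.00295). Aox1, which encodes an aldehyde oxidase and thus an enzyme that the Mocos product serves, rose by 1.31 ± 0.41 (log2 ± SE, edgeR adjusted p = 0.0339). Nfs1, which encodes the cysteine desulfurase of iron-sulfur cluster assembly, fell by 0.85 on the log2 scale (SE 0.27, edgeR adjusted p = 0.0359). Xdh, which encodes the other enzyme with a sulfurated cofactor, did not pass (0.86 ± 0.31, edgeR adjusted p = 0.0559). With the library set as a covariate Mocs1 still passed (1.68 ± 0.28, edgeR adjusted p = 0.000741), whereas Aox1 (edgeR adjusted p = 0.0851) and Nfs1 (edgeR adjusted p = 0.189) did not.

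Of 14 tested genes with RUN domains, 3 rose and 2 fell at 405 min. Rusc2, the paralog of Rusc1, was at 7.78 ± 7.67 CPM in the 5 controls and at 33.7 ± 16 CPM in the 4 samples of 405 min (mean ± SD). Its log2 fold change was 2.02 ± 0.51 by edgeR (adjusted p = 0.0137). Sgsm3 rose by 1.80 ± 0.55 (edgeR adjusted p = 0.0300) and Plekhm1, which encodes an adaptor of late endosomes and lysosomes, by 1.01 ± 0.30 (edgeR adjusted p = 0.0289). Rufy3 fell by 0.72 on the log2 scale (edgeR adjusted p = 0.0281) and Rufy1, which encodes an endosomal effector, by 0.61 (edgeR adjusted p = 0.0233). With the set as a covariate Rusc2 (1.26 ± 0.21, edgeR adjusted p = 0.000834) and Sgsm3 (1.25 ± 0.33, edgeR adjusted p = 0.0182) passed and Plekhm1, Rufy1 and Rufy3 did not. Rusc2 and Rusc1 were both higher in library set 2, Rusc2 by 1.71 ± 0.18 (log2 ± SE; edgeR adjusted p = 1.12e-05). At 135 min Rusc2 passed with the set as a covariate (0.93 ± 0.21, edgeR adjusted p = 0.0153) and within set 1 (1.04 ± 0.25, edgeR adjusted p = 0.0372).

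Of 15 tested genes of the ABHD family and N-acylethanolamine metabolism, 1 rose and 1 fell at 405 min. Abhd12, which encodes a lipase of lysophosphatidylserine, rose by 1.57 ± 0.47 (log2 ± SE, edgeR adjusted p = 0.0295), and Fam108c, which encodes a depalmitoylase now named Abhd17c, fell by 0.69 (SE 0.17, edgeR adjusted p = 0.0142). Both passed with the set as a covariate, at 0.86 ± 0.22 and -0.65 ± 0.19. Abhd12 also passed in that model at 135 min (0.79 ± 0.22, edgeR adjusted p = 0.0378). Genes of other steps of N-acylethanolamine metabolism did not pass at 405 min, with values of -0.02 ± 0.18 for Napepld, which releases N-acylethanolamines, 0.14 ± 0.23 for Gde1, and -0.58 ± 0.24 for Naaa, which hydrolyses them.

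Of 13 tested MYB factors and subunits of the MuvB and DREAM complexes, which control cell cycle genes, 2 rose and none fell at 405 min. Lin37, a MuvB subunit, rose by 1.86 ± 0.32 (log2 ± SE, edgeR adjusted p = 0.00175) and Rbl2, the pocket protein p130, by 1.15 ± 0.35 (edgeR adjusted p = 0.0316). Lin37 passed with the set as a covariate (1.497 ± 0.29, edgeR adjusted p = 0.00284) and Rbl2 did not (edgeR adjusted p = 0.0928). Mybl2, the paralog B-Myb, was at 0.65 ± 0.34 and did not pass. It passed at 135 min within set 1 (0.76 ± 0.18, edgeR adjusted p = 0.0368). Of 4 tested PAK kinases, Pak4, the target of the 6530418L21Rik product, rose by 0.95 ± 0.30 (edgeR adjusted p = 0.0366) and Pak3 fell by 0.81 (SE 0.20, edgeR adjusted p = 0.0125). Pak3 passed with the set as a covariate and Pak4 did not (edgeR adjusted p = 0.133).

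None of the 8 tested poly(A) polymerases and terminal nucleotidyltransferases passed at any time in the fit of all samples, with values at 405 min between -0.91 and 1.06. Papolg, a canonical nuclear poly(A) polymerase, was lower at 135 min with the set as a covariate (-0.80 ± 0.18, edgeR adjusted p = 0.0130) and within set 1 (-0.85 ± 0.17, edgeR adjusted p = 0.0211). Fam46a, the tested paralog of Fam46b, was at -0.66 ± 0.45 at 405 min (edgeR adjusted p = 0.270).

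**Figure D5:**
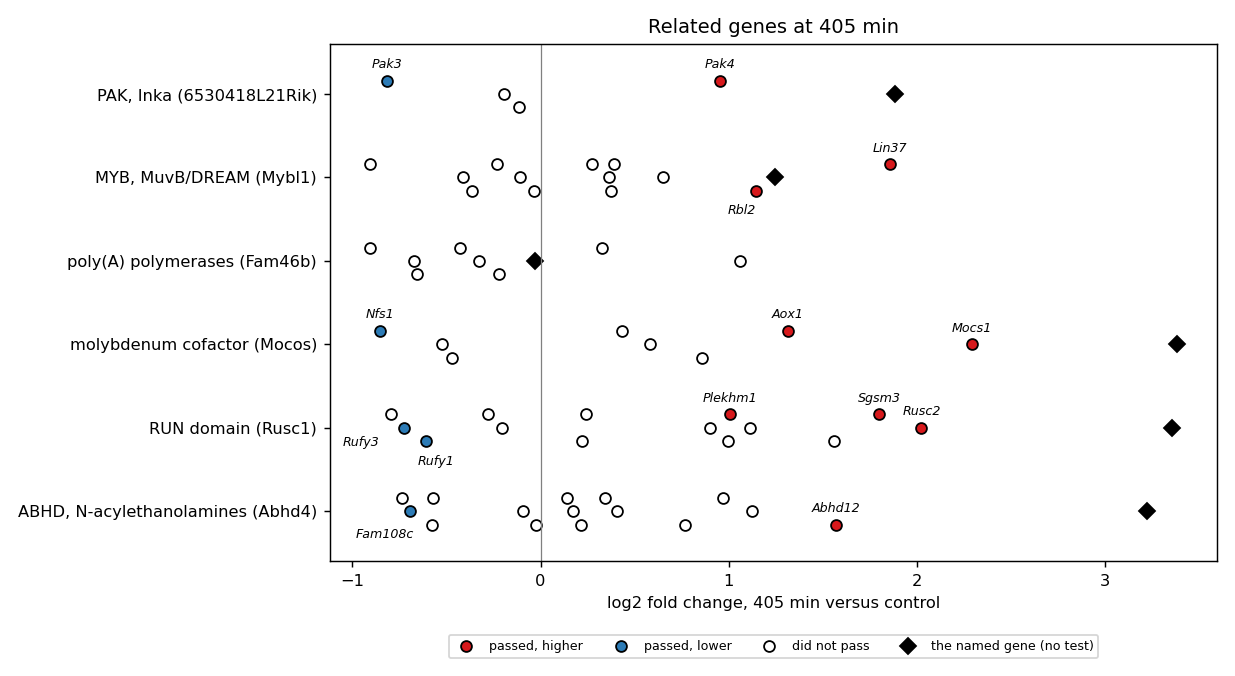
Log2 fold change at 405 min (x axis) of the 62 tested related genes by list, in red where a gene passed with a higher level, in blue where it passed with a lower level and open where it did not pass, with the member of each list as a black diamond (no test). Mocos, Rusc1 and Abhd4 lay to the right of every gene of their lists, of which Mocs1 was highest at 2.29.

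Genes next to the 6 genes on the chromosome were examined to describe the neighbourhood. The nearest tested gene on either side was between 3160 and 91685 bases away, and no gene overlapped a member. None of the 12 neighbours passed at 45 or 135 min by edgeR, with 1 at an unadjusted p under 0.05 at each time and 0 and 1 called by DESeq2. At 405 min 3 were higher and 1 was lower, beside 9.99% and 13.4% of all genes. Among them, Dad1, next to Abhd4, rose by 0.94 ± 0.30 (log2 ± SE; edgeR adjusted p = 0.0370) and Vcpip1, next to Mybl1, by 0.54 ± 0.14 (edgeR adjusted p = 0.0136). Rap1a, next to 6530418L21Rik, fell by 1.67 on the log2 scale (SE 0.43, edgeR adjusted p = 0.0162), opposite to its neighbour. With the library set as a covariate Vcpip1 passed (0.55 ± 0.14, edgeR adjusted p = 0.0174), whereas Dad1 (0.60 ± 0.25, edgeR adjusted p = 0.125) and Rap1a (-0.93 ± 0.34, edgeR adjusted p = 0.0859) did not. Fdps, 3557 bases from Rusc1, had a log2 fold change of 0.65 ± 0.39 (edgeR adjusted p = 0.220), and Elp2, 14861 bases from Mocos, one of 0.13 ± 0.16 (edgeR adjusted p = 0.537). The counts were 5 and 2 without control replicate 2, 1 and 0 without 405-min replicate 1 or 4, and 1 and 1 without control replicate 1 or 4 or 405-min replicate 2. The lower count was 2 without control replicate 5 or 45-min replicate 2 or 3.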

How the data were processed

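Poly(A) RNA of 15 samples was analysed. The expected counts and RPKM per RefSeq gene were deposited by the authors, who per the study's methods used the DNAnexus platform. The build was mm9 per the submitters' processing notes, and the aligner is not given in the sources used here. The methods describe 2 library preparations without naming which sample had which. The other deposited columns were not used. Expected counts were rounded and fitted with edgeR 4.0.16 (R 4.3.3), as planned for whole counts, in 1 quasi-likelihood model with a group term, TMM factors and the 10276 genes whose count was at least 1 in all samples. Adjusted p-values are Benjamini-Hochberg over these genes, with a threshold of 0.05, two-sided. DESeq2 1.42.0 was an alternative. The fitting was run on simulated counts with a single dispersion for all genes and no difference between library sets. That run therefore does not bear on how the sets affect the fits.

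CPM is the count per 1000000 counts in genes. RPKM uses the authors' own totals, so its ratio to CPM varied between samples. The labels do not say that replicates were separate cultures, so p-values measure the spread between these samples. No replicate pair agreed within sampling noise (chi-square per degree of freedom from 12.0 to 274 in 22 pairs). Library sets were the least-squares split into 2 of the slope of log2 CPM on transcript GC content (-1.42 to -0.66 per 10 percentage points in set 1, -0.36 to 0.06 in set 2; GENCODE vM1 transcripts for 95% of tested genes). Distances used log2 CPM with a prior count of 2.

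The 6 genes and all lists were chosen with earlier results of these data known. Named genes were the members, related and neighbouring genes past the threshold (at most 3 per list and direction), the 3 genes nearest in profile with at least 5 CPM, and 10 reference genes. Xdh, Mybl2, Papolg, Fam46a, Napepld, Gde1, Naaa, Fdps and Elp2 were named after their values were seen. The values of 1 neighbouring gene are not reported here.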

Additional observations from a re-analysis of the deposited data

Results flagged for a closer look

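Among the 12 groups of 4 or 5 samples tested for the 6 genes by Dixon's criterion, where chance alone marks about 1 in 20, 2 had a sample far from the others. Fam46b was at 35.4 CPM in control replicate 2, with the next control at 14.6 CPM, a gap of 0.743 of the range of the 5 controls. Rusc1 was at 2.13 CPM in the same sample, with the next control at 0.649 CPM, a gap of 0.866 of the range. This sample was the only control of library set 2, in which both genes were higher in the model with group and set.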

How the results depend on the processing

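No setting called any of the 6 genes at 45 min (lowest adjusted p 0.124, Rusc1 without control replicate 2, by edgeR). The direction at 45 min reversed for Mocos with the library set as a covariate (-0.044) and within set 1 (-0.088), and for Fam46b within set 2 (-0.61). Leaving out 1 sample gave -0.27 to 0.40 for Mocos and -0.16 to 0.56 for Fam46b. Related genes at 405 min (9 up, 5 down) numbered 8 up and 3 down with no filter, 3 and 0 with the compared groups alone, 13 and 8 by DESeq2, 6 and 2 with the set as a covariate, 1 and 0 within set 1 and 3 and 0 within set 2, with leave-one-out ranges of 2 to 19 and 1 to 17. Neighbours (3 up, 1 down) numbered 3 and 2 with RLE factors, 0 and 0 with the compared groups alone or within either set, 4 and 2 by DESeq2 and 2 and 0 with the set as a covariate, with ranges of 1 to 5 and 0 to 2. At 135 min, DESeq2 called 1 related gene up and 1 neighbour down. Both the set covariate and set 1 gave 2 related genes up and 1 down at that time. The share of all genes that passed in these alternative fits was not taken at 135 or 405 min. With the replicate number as a block, the related genes were 2 up and 2 down and the neighbours 1 up at 405 min. Same-numbered samples did not deviate together (mean r = -0.11 over 19 pairs, from -0.71 to 0.44, against 0.03 over 64 other pairs). The library set was not removed from these correlations, and same-numbered samples often lie in different sets. The correlations therefore cannot tell whether the numbers pair the samples. The fit within set 2, added after seeing the data, has no 135-min value, since that set holds no 135-min sample. Low read numbers limit Rusc1, Mocos and 6530418L21Rik in controls. Except where stated, the cause of a change was not tested.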
